A study of Mus musculus with 18 samples.

Results

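Among the 14391 genes measured in cultured mouse tendon cells, 33 belong to the unfolded protein response and the integrated stress response, a pair of linked programmes by which a cell adjusts protein folding and amino acid supply. The members were taken by name, and all 33 have a row in the deposited table. They fall into an endoplasmic reticulum (ER) arm of 18 genes for chaperones, folding enzymes and the removal of misfolded proteins, and an ATF4 arm of 15 genes for transcription factors, feedback regulators and amino acid enzymes. The lowest group mean of any member was 5.58 CPM (reads per 1e6 counted reads, Atf3 in adult cells in media), and every gene of the deposited table has at least 1 CPM in 3 or more libraries.

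The cells were primary wild-type tendon fibroblasts, from 4 adult or 3 neonatal tendons per digest, passaged 2 times, frozen, thawed and grown for 3 days from 25K cells. The 6 groups of 3 libraries cross cell age (adult or neonatal) with 3 treatments, each mixed with complete DMEM: T cell medium alone (media), supernatant of stimulated adult T cells (adult supernatant) or supernatant of stimulated neonatal T cells (neonatal supernatant). All groups share the digestion, passage and freezing, and all 18 libraries carry the same batch label. No label states the age in days, the mouse strain, how long treatment lasted or whether replicate libraries stem from different animals or wells, so the p-values measure the spread between these libraries, which may be technical. The study's title sets the question of how neonatal tendon cells resist inflammation and what factors secreted by T cells contribute.

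Misfolded proteins in the ER activate the sensors IRE1 (gene Ern1), PERK (Eif2ak3) and ATF6. IRE1 splices the mRNA of Xbp1, and spliced XBP1 and cleaved ATF6 turn on chaperones and ER-associated degradation (ERAD), the export of misfolded proteins to the proteasome. PERK and the related kinases GCN2 (Eif2ak4, amino acid shortage), PKR (Eif2ak2, double-stranded RNA) and HRI (Eif2ak1, haem shortage) phosphorylate the initiation factor eIF2, which lowers protein synthesis as a whole while raising translation of the Atf4 mRNA. ATF4 then drives genes for amino acid synthesis and uptake. Activation of ATF4, of XBP1 and of ATF6 happens largely at translation, splicing and cleavage, which values per gene do not show. Tendon fibroblasts secrete large amounts of collagen and pass it through the ER.

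Short elements known from stress-response promoters were looked for near the starts of the members. The windows came from RefSeq (build GRCm38.p6, 250 bases before to 50 after each gene's start), where 31 of the 33 members had one, and Hyou1 and Manf are named only. The ER stress element was searched as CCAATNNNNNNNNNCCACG on both strands. It was found in 7 of 16 ER-arm genes with a window, in 0 of 15 ATF4-arm genes and in 0.119% of all 32851 windows. These sites are shown because all 7 genes are ER folding genes, whose RNA is described below. Each is written with 12 bases on either side, in the direction of the motif, with the motif in capitals and the strand of the printed run.
Calr, chr8:84847063-84847105, plus strand: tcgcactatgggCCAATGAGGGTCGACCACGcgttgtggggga
Canx, chr11:50325788-50325830, minus strand: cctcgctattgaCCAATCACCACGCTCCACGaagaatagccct
Creld2, chr15:88819508-88819550, minus strand: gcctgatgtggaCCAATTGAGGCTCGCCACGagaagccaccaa
Dnajc3, chr14:118937815-118937857, plus strand: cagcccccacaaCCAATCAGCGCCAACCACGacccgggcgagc
Hsp90b1, chr10:86705521-86705563, plus strand: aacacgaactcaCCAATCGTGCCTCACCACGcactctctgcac
Hsp90b1, chr10:86705626-86705668, minus strand: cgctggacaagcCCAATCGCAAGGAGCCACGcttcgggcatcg
Hspa5, chr2:34772013-34772055, plus strand: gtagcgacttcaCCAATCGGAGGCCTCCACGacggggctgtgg
Pdia6, chr12:17266479-17266521, plus strand: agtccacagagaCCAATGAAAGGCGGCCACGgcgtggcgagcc

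The composite element bound by ATF4 with C/EBP proteins was searched as TGATGCAA on both strands. It was found in 4 of 15 ATF4-arm genes, in 1 of 16 ER-arm genes (Herpud1) and in 0.895% of all windows. The sites are shown because the RNA of all 5 genes is described below. With adult supernatant Atf3, Nupr1 and Vldlr rose and Herpud1 fell at both ages, and Chac1 fell in neonatal cells. They are written as above.
Atf3, chr1:191183424-191183455, plus strand: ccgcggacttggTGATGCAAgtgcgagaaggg
Chac1, chr2:119351037-119351068, minus strand: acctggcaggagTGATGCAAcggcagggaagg
Herpud1, chr8:94386305-94386336, minus strand: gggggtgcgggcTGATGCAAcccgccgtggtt
Nupr1, chr7:126625561-126625592, plus strand: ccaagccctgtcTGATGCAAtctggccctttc
Vldlr, chr19:27216808-27216839, minus strand: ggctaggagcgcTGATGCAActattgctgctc

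Another form, TGATGNAAT, frees the base after TGATG but also requires a final T, so it does not contain the first. It matched only Nupr1 among the members, against 0.965% of windows. Neither form matches the run TGATGAAAC in the Asns window. TGACGTGG, the unfolded protein response element, matched 0 members of either arm, against 0.676%. CCACG alone, which is the end of the ER stress element, matched 14 of 16 ER-arm and 10 of 15 ATF4-arm promoters, against 32.8% of all windows. A match is a run of letters and not a shown binding site, and no match says only that the letters are not in this window. A gene counted if any of its windows matched, while the shares of all promoters are per window. Since the elements were known from stress-response promoters, these shares are a description and no test.

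The estimated depth was 12.7 to 17.7 M reads per library, at which 3 reads are 0.169 to 0.237 CPM (counting error only). The 12 markers of tendon cells and fibroblasts were all measured, with Scx at 15.9 CPM in adult and 353 CPM in neonatal cells in media, and their summed level was 36994 to 40593 CPM in adult cells in media, 16662 to 18403 with adult supernatant and 29217 to 37858 with neonatal supernatant. In neonatal cells it was 35317 to 38460, 19041 to 19948 and 28245 to 31009 CPM. Of 14 T cell markers 5 had a row, with sums of 2.42 to 4.65 CPM in adult cells in media and 5.51 to 15.0 with adult supernatant, and in neonatal cells 2.69 to 4.57 and 7.29 to 9.2 CPM. Of 6 mural cell markers 5 had a row, with sums of 315 to 358 CPM in adult cells in media, 73.6 to 82.4 with adult and 146 to 179 with neonatal supernatant, and 292 to 436, 95.1 to 103 and 224 to 279 CPM in neonatal cells. With adult supernatant 4 of these 5 fell and 0 rose at each age (limma, adjusted p under 0.05). That is 80%, against 23.9% of all genes called lower in adult and 19.5% in neonatal cells. Of 13 macrophage markers 12 had a row, with sums of 115 to 144, 81.6 to 91.5 and 102 to 134 CPM in adult and 41.7 to 64.5, 55.8 to 69.2 and 60.8 to 96.1 CPM in neonatal cells, in the same order. Lyz2 had the largest mean of them in adult cells, 85.9 CPM in media and 33.3 CPM with adult supernatant. With adult supernatant 4 of the 12 rose and 1 fell in adult cells (33.3 and 8.33%, all genes 28.2 and 23.9%). In neonatal cells 9 rose and 1 fell (75 and 8.33%, all genes 28.3 and 19.5%). Listed as media, adult and neonatal supernatant, the 7 endothelial markers summed to 63.8 to 69.4, 40.8 to 62.0 and 53.8 to 61.9 CPM in adult and 29.3 to 37.1, 25.7 to 35.7 and 18.8 to 27.1 CPM in neonatal cells. The 2 of 6 skeletal muscle markers with a row summed to 20.7 to 45.6, 10.6 to 13.4 and 13.002 to 20.9 CPM in adult and 54.8 to 74.3, 8.62 to 15.8 and 26.7 to 36.1 CPM in neonatal cells. The 4 of 8 B and plasma cell markers with a row summed to 178 to 269 CPM over all libraries, and 1 of them, Ms4a1, was at the lowest listed value in all neonatal libraries in media. Nearly all of this sum was Sdc1, with group means of 188 to 249 CPM, against 2.80 CPM or less for Ms4a1, Igj and Pax5. With adult supernatant 3 of the 4 rose and 0 fell in adult cells (75%, all genes called higher 28.2%). In neonatal cells 2 rose and 0 fell (50%, all genes 28.3%). The part of these cell types in the results below was not tested. In bulk RNA, fewer cells of a type and less RNA per cell cannot be told apart.

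Library 2 of adult cells in media and library 1 of neonatal cells in media stood apart in 12 type I interferon genes. Their mean was 3.19 log2 CPM against 1.5 and 1.24 in the other adult libraries in media. In the neonatal ones it was 3.28 against 0.31 and -0.13. Adult cells with neonatal supernatant were also spread, at 3.65, 4.41 and 1.81 in libraries 1 to 3. Neonatal cells with neonatal supernatant had 0.56, 0.29 and 0.66. With adult supernatant the values were 5.05, 5.16 and 5.17 in adult and 4.47, 4.64 and 4.53 in neonatal cells. The part of this level in the results was not tested in the treated groups. Under quantile normalization the all-gene median moved by -0.12 (adult cells) and -0.18 (neonatal cells) for adult supernatant against media, and by 0.13 for neonatal against adult supernatant in neonatal cells. It changed the share of calls that were higher from 54.1 to 41.7%, from 59.1 to 46.5%, from 59.3 to 39.8% and from 58.5 to 48.4% in the comparisons with media, listed as adult cells with adult supernatant, then with neonatal supernatant, then neonatal cells likewise, and from 42.3 to 61.4% where neonatal cells were compared across supernatants (53.0% with TMM scaling). For the interaction of age with adult supernatant TMM scaling changed it from 66.0 to 53.9%. No called member changed direction under either scaling.

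**Figure D1:**
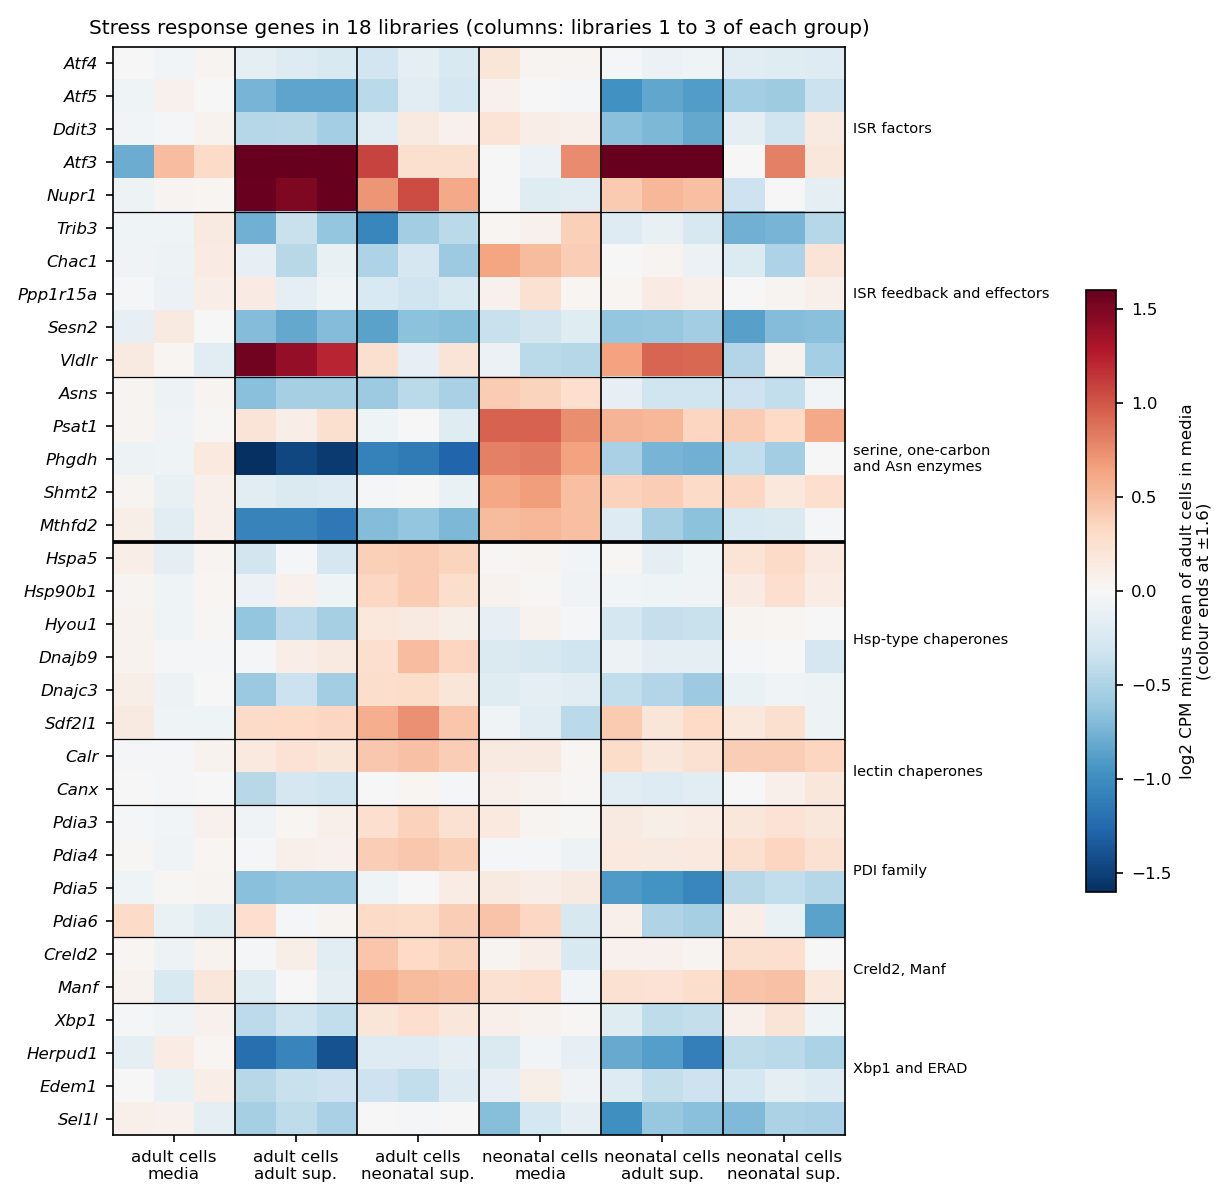
Level of each of the 33 genes in 18 libraries, as log2 CPM minus the mean of adult cells in media, with genes in rows by role and libraries in columns by group. The ER folding rows are mostly reddest in adult cells with neonatal supernatant, while Phgdh, Mthfd2 and Sesn2 are blue in all 6 libraries of supernatant-treated adult cells.

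Relative to media of the same cell age, the arms separated most under neonatal supernatant. The mean log2 level of the 14 ER folding genes, relative to adult cells in media, was 0.06, -0.07 and 0.02 in adult cells in media, -0.16, -0.05 and -0.13 with adult and 0.31, 0.35 and 0.29 with neonatal supernatant, in the order of libraries 1 to 3. In neonatal cells it was 0.05, 0.04 and -0.10 in media, -0.03, -0.14 and -0.13 with adult and 0.12, 0.15 and -0.03 with neonatal supernatant. All 3 adult libraries with neonatal supernatant lay above every other library, and neonatal library 3 with neonatal supernatant lay below the other libraries of its group. The 5 amino acid enzymes stood at 0.03, -0.10 and 0.07 in adult cells in media, at -0.66, -0.64 and -0.63 with adult and at -0.49, -0.44 and -0.56 with neonatal supernatant. Neonatal cells in media had the highest values, 0.66, 0.67 and 0.52, against 0.01, -0.13 and -0.22 with adult and -0.05, -0.14 and 0.16 with neonatal supernatant.

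As a difference of medians, the log2 fold change of the ER arm exceeded that of the ATF4 arm by 0.59 in adult cells and by 0.54 in neonatal cells with neonatal supernatant against media. With adult supernatant the difference was 0.08 in adult and 0.19 in neonatal cells. The value of 0.08 fell to -0.024 without adult-supernatant library 2 of adult cells and went to 0.17 without library 1. The next values are means of log2 levels, all relative to adult cells in media. On that scale the ER arm minus the ATF4 arm was -0.16 in adult cells with adult supernatant, against 0 in media. In neonatal cells it was -0.25 with adult supernatant, against -0.27 in media. The sign in adult cells with adult supernatant thus depended on the summary. With neonatal supernatant the means gave 0.48 in adult and 0.16 in neonatal cells, against the same 0 and -0.27 in media. These are descriptions of the lists and carry no test. Supernatant comparisons at 1 cell age share the media libraries, so their values are given side by side.

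**Figure D2:**
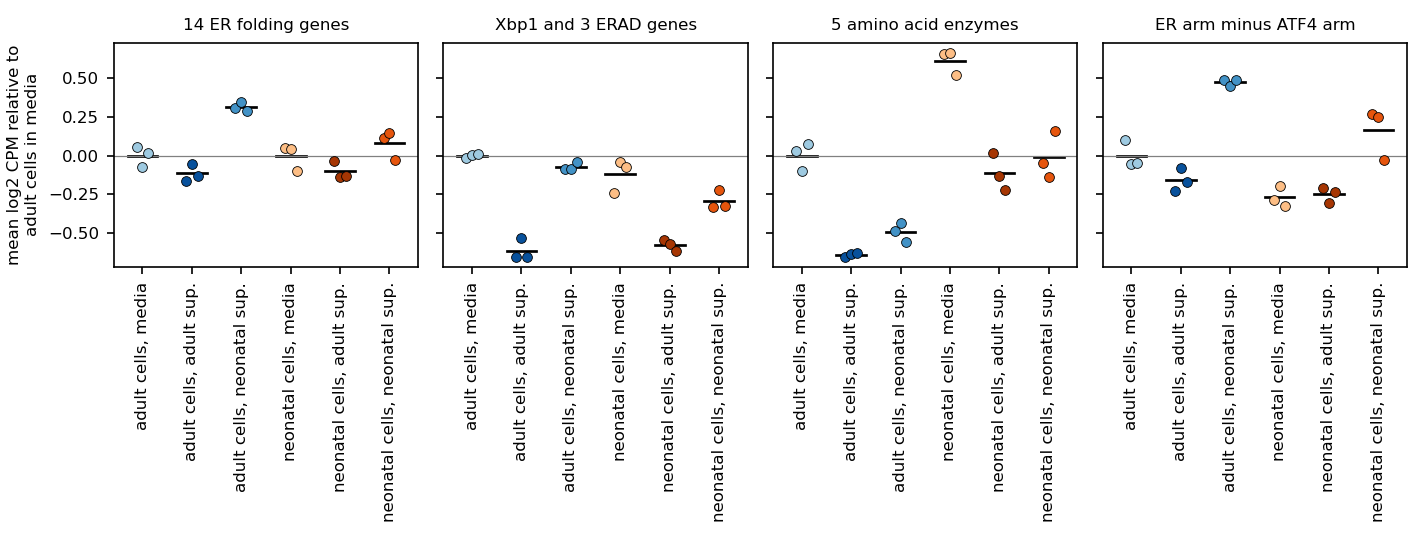
Mean log2 CPM relative to adult cells in media of the ER folding genes, of Xbp1 with the ERAD genes, of the amino acid enzymes, and the ER arm minus the ATF4 arm, with 1 point per library and a line at the mean of each group. The ER folding genes are highest in adult cells with neonatal supernatant (0.29 to 0.35) and the amino acid enzymes in neonatal cells in media (0.52 to 0.67).

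Against media, the ATF4 arm fell more often than it rose with either supernatant. A gene was called where limma's adjusted p (Benjamini-Hochberg over all 14391 genes) was under 0.05. In adult cells 9 of 15 fell and 3 rose with adult supernatant (median log2 fold change -0.23), against 23.9% of all genes called lower and 28.2% called higher (median 0.03). With neonatal supernatant 9 fell and 1 rose (median -0.27), against 11.2 and 16.1% (median 0.03). In neonatal cells 10 fell and 3 rose with adult supernatant (median -0.35), against 19.5 and 28.3% (median 0.07). With neonatal supernatant 10 fell and 0 rose (median -0.43), against 7.62 and 10.7% (median 0.04). Values after a gene name below are log2 fold changes ± standard error from limma, with 3 libraries per group.

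The amino acid enzymes were 4 and 3 of the 9 genes that fell in adult cells with adult and neonatal supernatant, and 5 of the 10 with each in neonatal cells. Of the 5 enzymes that was 80 and 60% in adult cells, against 23.9 and 11.2% of all genes. In neonatal cells it was 100% with each, against 19.5 and 7.62%. Phgdh, the first enzyme of serine synthesis from glucose, read 172, 173 and 202 CPM in adult cells in media, 60.3, 66.2 and 63.01 with adult and 85.7, 82.6 and 75.1 with neonatal supernatant. Neonatal cells had 317, 322 and 285 CPM in media, 127, 109 and 107 with adult and 139, 124 and 183 with neonatal supernatant. No treated library overlapped media at either age. It fell by 1.53 ± 0.11 and 1.17 ± 0.11 on the log2 scale in adult cells with adult and neonatal supernatant (limma, adjusted p = 7.65e-09 and 1.09e-06) and by 1.43 ± 0.11 and 1.07 ± 0.11 in neonatal cells (adjusted p = 2.12e-08 and 3.49e-06). Of its transcripts' 31-base words, 56.3% also occur in transcripts of other genes (44.8% in Gm7901), so its level is uncertain.

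Mthfd2, a mitochondrial enzyme of folate-bound carbon units, read 81.3, 67.03 and 80.7 CPM in adult cells in media, 36.3, 36.2 and 34.6 with adult and 47.2, 49.4 and 46.2 with neonatal supernatant. Neonatal cells had 108, 110.1 and 106 CPM in media, 65.8, 52.6 and 48.1 with adult and 64.1, 64.8 and 74.2 with neonatal supernatant. The groups treated with either supernatant again lay wholly below media. The fall was 1.09 ± 0.10 and 0.68 ± 0.10 in adult cells and 0.97 ± 0.10 and 0.68 ± 0.10 in neonatal cells on the log2 scale (limma, largest adjusted p = 0.000114).

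Asns, which makes asparagine, fell in all 4 comparisons with media, by 0.58 ± 0.08, 0.51 ± 0.08, 0.60 ± 0.08 and 0.60 ± 0.08 in the order adult cells with adult and neonatal supernatant and neonatal cells with each (limma, largest adjusted p = 0.000235). Shmt2, the mitochondrial enzyme that passes a carbon unit from serine to folate, fell by 0.20 ± 0.07 in adult cells with adult supernatant and by 0.24 ± 0.07 and 0.34 ± 0.07 in neonatal cells (limma, largest adjusted p = 0.0191). The adult value was not called without media library 1 or 3 or treated library 2. With neonatal supernatant in adult cells its log2 fold change was -0.04 ± 0.07 (adjusted p = 0.685). Psat1, which follows Phgdh in serine synthesis, fell by 0.40 ± 0.08 and 0.43 ± 0.08 in neonatal cells (limma, adjusted p = 0.000562 and 0.000994), and in adult cells stood at 0.19 ± 0.08 and -0.09 ± 0.08 (adjusted p = 0.0605 and 0.436).

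The transcription factors of the arm divided. Atf4 itself fell by 0.20 ± 0.05, 0.23 ± 0.05, 0.15 ± 0.05 and 0.28 ± 0.05 in the same order of comparisons (limma, adjusted p = 0.00426, 0.00417, 0.0288 and 0.00105), where the value for neonatal cells with adult supernatant was not called without media library 1, without treated library 2 or 3, or without both media libraries of high interferon level (adjusted p = 0.154). Atf5, a related factor induced under stress, fell by 0.81 ± 0.07, 0.29 ± 0.07, 0.91 ± 0.07 and 0.50 ± 0.07 (largest adjusted p = 0.00553). Ddit3, which encodes the stress factor CHOP, fell with adult supernatant, by 0.48 ± 0.10 in adult and 0.87 ± 0.10 in neonatal cells (adjusted p = 0.000614 and 1.6e-06), and was at 0.02 ± 0.10 and -0.25 ± 0.10 with neonatal supernatant (adjusted p = 0.918 and 0.0959).

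Atf3, an early factor induced by many stresses and by inflammatory signals, went the other way. It read 3.00, 7.31 and 6.43 CPM in adult cells in media, 26.1, 27.3 and 24.4 with adult supernatant and 11.01, 6.22 and 6.19 with neonatal supernatant. Neonatal cells had 5.22, 4.88 and 8.76 CPM in media, 24.5, 29.6 and 24.5 with adult and 5.20, 9.10 and 5.90 with neonatal supernatant. The 6 libraries with adult supernatant lay above all others, while those with neonatal supernatant overlapped media. It rose with adult supernatant by 2.32 ± 0.32 in adult and 2.10 ± 0.32 in neonatal cells (limma, adjusted p = 1.13e-05 and 3.88e-05).

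Nupr1, a small nuclear protein of the stress response, read 45.3, 49.3 and 48.8 CPM in adult cells in media, 143, 134 and 153 with adult and 77.7, 98.5 and 72.5 with neonatal supernatant. Neonatal cells had 47.9, 41.7 and 41.97 CPM in media, 63.6, 68.9 and 66.8 with adult and 37.9, 48.1 and 43.2 with neonatal supernatant. In adult cells the 3 groups did not overlap, and in neonatal cells neonatal supernatant overlapped media. It rose by 1.58 ± 0.11 and 0.78 ± 0.11 in adult cells (limma, adjusted p = 1.8e-09 and 3.22e-05) and by 0.60 ± 0.11 in neonatal cells with adult supernatant (adjusted p = 0.000168), and was at -0.03 ± 0.11 with neonatal supernatant (adjusted p = 0.888). The mean of the 5 factors in adult cells with adult supernatant was above media (0.46 to 0.51 per library), while their median fold change was -0.20, since Atf3 and Nupr1 were higher and the other 3 lower.

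Among the feedback and effector genes, Vldlr, a lipoprotein receptor that ATF4 can induce, rose with adult supernatant. It read 79.6, 73.6 and 63.9 CPM in adult cells in media, 210.0, 191 and 168 with adult and 85.9, 66.00 and 83.3 with neonatal supernatant. Neonatal cells had 67.4, 53.5 and 52.4 CPM in media, 113, 137 and 137 with adult and 52.3, 74.9 and 49.3 with neonatal supernatant. The rise was 1.39 ± 0.15 and 1.16 ± 0.15 (limma, adjusted p = 8.53e-07 and 8.4e-06), and libraries with neonatal supernatant overlapped media.

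Sesn2, a leucine sensor that restrains mTORC1, read 120.0, 145 and 130.4 CPM in adult cells in media, 81.1, 74.7 and 81.6 with adult and 72.4, 83.6 and 81.7 with neonatal supernatant. Neonatal cells had 103, 107 and 115 CPM in media, 85.3, 86.1 and 89.3 with adult and 72.2, 81.5 and 82.4 with neonatal supernatant. All treated libraries lay below the media libraries of their age. The fall was 0.73 ± 0.08 and 0.73 ± 0.08 in adult and 0.32 ± 0.08 and 0.46 ± 0.08 in neonatal cells (limma, largest adjusted p = 0.0031). Trib3, a pseudokinase that feeds back on ATF4, fell by 0.58 ± 0.15 and 0.68 ± 0.15 in adult cells and by 0.81 ± 0.15 in neonatal cells with neonatal supernatant (limma, adjusted p = 0.00343, 0.00255 and 0.000871), and was at -0.35 ± 0.15 with adult supernatant (adjusted p = 0.0597).

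Chac1, which degrades glutathione, fell by 0.45 ± 0.15 in adult cells with neonatal supernatant and by 0.53 ± 0.15 and 0.68 ± 0.15 in neonatal cells with adult and neonatal supernatant (limma, adjusted p = 0.0331, 0.00721 and 0.00363). Its fall in adult cells was not called without both media libraries of high interferon level or without media library 1 or 3 or treated library 1 or 3. Ppp1r15a, which encodes GADD34, the phosphatase subunit that restores eIF2, fell by 0.27 ± 0.08 in adult cells with neonatal supernatant (adjusted p = 0.0212), a call that ended without media library 3 or treated library 2. Its other values against media were -0.03 ± 0.08, -0.04 ± 0.08 and -0.08 ± 0.08 (smallest adjusted p = 0.586).

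**Figure D3:**
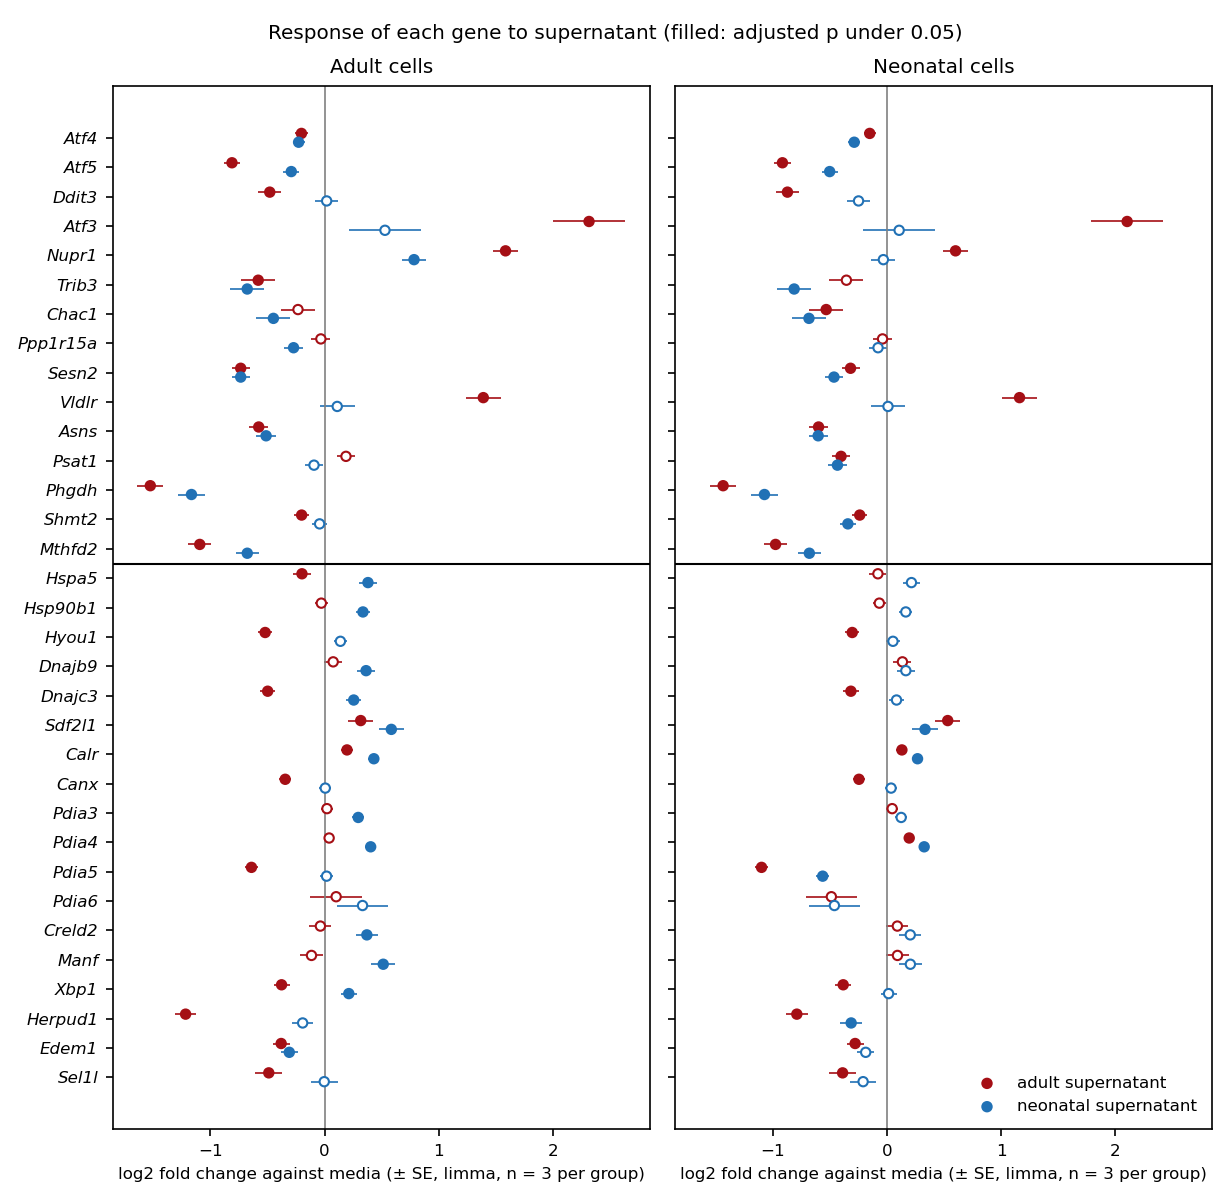
Log2 fold change against media (horizontal axis, ± SE from limma, 3 libraries per group) of each of the 33 genes (rows) in adult cells (left) and neonatal cells (right), for adult supernatant (red) and neonatal supernatant (blue), with filled points where the adjusted p is under 0.05 and a line between the ATF4 arm above and the ER arm below. Phgdh reaches -1.53 and Atf3 2.32 in adult cells with adult supernatant, and most ER folding genes are right of 0 with neonatal supernatant in adult cells.

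In adult cells most of the ER arm rose with neonatal supernatant, and more of it fell than rose with adult supernatant. With neonatal supernatant 11 of 18 rose and 1 fell (median 0.31), against the 16.1 and 11.2% of all genes given above. With adult supernatant 2 rose and 9 fell (median -0.16), against 28.2 and 23.9%. In neonatal cells 3 rose and 2 fell with neonatal supernatant (median 0.11), against 10.7 and 7.62%. With adult supernatant 3 rose and 8 fell (median -0.16), against 28.3 and 19.5%. Without library 3 of neonatal cells with neonatal supernatant, whose ER folding level was lower than the others, the number of all members that rose in that comparison went from 3 to 6. Without both media libraries of high interferon level, adult supernatant gave 4 rises and 18 falls among the members in adult cells (5 and 18 when kept) and neonatal supernatant 10 and 9 (12 and 10). In neonatal cells the counts were 6 and 17 (6 and 18) with adult and 4 and 13 (3 and 12) with neonatal supernatant.

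Of the 6 Hsp-type chaperones and their cofactors, 5 rose in adult cells with neonatal supernatant (83.3%, all genes called higher 16.1%). Hspa5 encodes BiP, the main ER Hsp70 and the classical marker of the unfolded protein response. It read 1453, 1212 and 1391 CPM in adult cells in media, 1099, 1321 and 1119 with adult and 1756, 1786 and 1721 with neonatal supernatant. Neonatal cells had 1361, 1392 and 1313 CPM in media, 1362, 1210.5 and 1284 with adult and 1562, 1659.8 and 1504 with neonatal supernatant. Neonatal supernatant lay above media and above adult supernatant at both ages with no overlap. It rose by 0.38 ± 0.08 in adult cells (limma, adjusted p = 0.00113) and was at 0.22 ± 0.08 in neonatal cells (adjusted p = 0.0558). With adult supernatant it fell by 0.20 ± 0.08 in adult cells (limma, adjusted p = 0.0357) and was at -0.08 ± 0.08 in neonatal cells (adjusted p = 0.42). The fall was not called without media library 1 or 3 or treated library 1 or 3. Nor was it called with no trend or with only the groups compared.

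Hsp90b1, which encodes the ER Hsp90 GRP94, read 1738, 1599.8 and 1721 CPM in adult cells in media, 1585, 1771 and 1607 with adult and 2119, 2224 and 2043 with neonatal supernatant. The last group lay above the other adult libraries. It rose by 0.34 ± 0.06 with neonatal supernatant in adult cells (limma, adjusted p = 0.000351), and its other values against media were -0.03 ± 0.06 in adult cells with adult supernatant and -0.07 ± 0.06 and 0.17 ± 0.06 in neonatal cells (smallest adjusted p = 0.0563). Of its 31-base words, 12.3% occur in other genes' transcripts. Hyou1, a large Hsp70-like chaperone, fell with adult supernatant by 0.52 ± 0.06 in adult and 0.30 ± 0.06 in neonatal cells (adjusted p = 1.35e-06 and 0.000465), and was at 0.14 ± 0.06 and 0.05 ± 0.06 with neonatal supernatant (adjusted p = 0.0952 and 0.593).

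Dnajc3, which encodes the BiP cochaperone p58IPK, read 208, 185 and 196 CPM in adult cells in media, 129.7, 154 and 134 with adult and 239, 239 and 223 with neonatal supernatant. The adult groups did not overlap and lay on opposite sides of media. It rose by 0.26 ± 0.07 with neonatal supernatant and fell by 0.50 ± 0.07 with adult supernatant (limma, adjusted p = 0.00926 and 9.63e-06). The rise was not called without both media libraries of high interferon level (adjusted p = 0.0545). In neonatal cells it fell by 0.31 ± 0.07 with adult supernatant (adjusted p = 0.000993) and was at 0.09 ± 0.07 with neonatal supernatant. Dnajb9, a BiP cochaperone that represses IRE1, rose by 0.36 ± 0.08 in adult cells with neonatal supernatant (adjusted p = 0.00239), and 10.8% of its 31-base words occur in Gm6568.

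Sdf2l1, a partner of BiP complexes, was called higher in all 4 comparisons with media, at 0.32 ± 0.11 and 0.58 ± 0.11 in adult cells with adult and neonatal supernatant and 0.53 ± 0.11 and 0.33 ± 0.11 in neonatal cells (limma, adjusted p = 0.0228, 0.000744, 0.000706 and 0.043). The last value was not called in 12 of 28 alternatives, among them TMM scaling, quantile normalization and leaving out media library 2 or 3 or treated library 1 or 2. The first was not called without media library 2 or 3, without treated library 2 or 3, or without both media libraries of high interferon level.

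The lectin chaperones, which hold glycoproteins during folding, parted. Calr, the soluble one, read 1597, 1605 and 1699 CPM in adult cells in media, 1825, 1916 and 1874 with adult and 2195, 2266 and 2149 with neonatal supernatant. Neonatal cells had 1809, 1801 and 1670.0 CPM in media, 1997, 1849 and 1940.0 with adult and 2144, 2137 and 2079 with neonatal supernatant. The treated groups lay above media without overlap at both ages. It rose by 0.20 ± 0.05, 0.43 ± 0.05, 0.13 ± 0.05 and 0.27 ± 0.05 (limma, adjusted p = 0.00267, 4.74e-06, 0.0329 and 0.000755), in the order adult cells with adult and neonatal supernatant and neonatal cells with each. The rises with adult supernatant were not called after quantile normalization, and that in neonatal cells also not after TMM scaling or without media library 3 or treated library 1 or 3. Canx, the membrane-bound one, fell with adult supernatant by 0.34 ± 0.05 in adult and 0.24 ± 0.05 in neonatal cells (adjusted p = 2.58e-05 and 0.00083) and was at 0.01 ± 0.05 and 0.04 ± 0.05 with neonatal supernatant (adjusted p = 0.947 and 0.678).

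Of the protein disulfide isomerases, Pdia3 and Pdia4 rose in adult cells with neonatal supernatant, by 0.29 ± 0.05 and 0.40 ± 0.05 (limma, adjusted p = 0.000528 and 4.82e-06). Pdia4 also rose in neonatal cells, by 0.20 ± 0.05 with adult and 0.33 ± 0.05 with neonatal supernatant (adjusted p = 0.00183 and 6.17e-05), where the former was not called after TMM scaling or quantile normalization. Pdia5, the isomerase known for activating ATF6, read 101, 108 and 109 CPM in adult cells in media, 66.7, 68.7 and 68.7 with adult and 101, 106 and 115 with neonatal supernatant. For neonatal cells the values were 117, 114 and 117 CPM in media, 56.6, 54.9 and 51.4 with adult and 77.8, 80.4 and 77.6 with neonatal supernatant. Adult supernatant lay below all other libraries of its cell age. It fell by 0.64 ± 0.06 in adult cells and by 1.10 ± 0.06 and 0.56 ± 0.06 in neonatal cells with adult and neonatal supernatant (adjusted p = 8.47e-08, 1.59e-10 and 2.46e-06), and was at 0.02 ± 0.06 in adult cells with neonatal supernatant (adjusted p = 0.86). Pdia6 was not called in any of the 9 comparisons, and its libraries were the most spread of the ER arm, for example 177, 152 and 90.4 CPM in neonatal cells with neonatal supernatant.

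Manf and Creld2 encode ER proteins that cells also secrete under stress. Manf read 163, 133 and 178 CPM in adult cells in media, 138, 157 and 142 with adult and 233, 223 and 217 with neonatal supernatant. Neonatal cells had 185, 189 and 153 CPM in media, 186, 184 and 191 with adult and 215, 217 and 177 with neonatal supernatant. The adult libraries with neonatal supernatant lay above all other adult libraries, while the neonatal treated groups overlapped media. It rose by 0.51 ± 0.10 in adult cells with neonatal supernatant (limma, adjusted p = 0.00136). Creld2 rose there by 0.37 ± 0.10 (adjusted p = 0.00795). In the other 3 comparisons with media neither was called, with log2 fold changes of -0.11, 0.09 and 0.21 for Manf and -0.04, 0.09 and 0.21 for Creld2.

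Xbp1 and the ERAD genes were lower with adult supernatant, where 4 of 4 fell at both ages. That is 100%, against 23.9% of all genes called lower in adult and 19.5% in neonatal cells. Herpud1, a membrane protein that assembles the degradation complex, read 72.02, 86.6 and 81.7 CPM in adult cells in media, 34.5, 38.5 and 30.5 with adult and 69.00, 69.1 and 71.8 with neonatal supernatant. Neonatal cells had 67.96, 77.2 and 73.03 CPM in media, 45.9, 43.2 and 37.6 with adult and 60.1, 59.4 and 56.1 with neonatal supernatant. Adult supernatant gave the lowest 3 libraries at each age. It fell by 1.22 ± 0.09 in adult and 0.79 ± 0.09 in neonatal cells (limma, adjusted p = 1.07e-08 and 2.72e-06). With neonatal supernatant it fell by 0.31 ± 0.09 in neonatal cells (adjusted p = 0.0278), a call that ended without media library 2 or 3 or any of the 3 treated libraries, and stood at -0.19 ± 0.09 in adult cells (adjusted p = 0.146).

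Xbp1, whose total RNA is measured here and not its splicing, read 102, 99.1 and 108 CPM in adult cells in media, 76.9, 82.4 and 78.6 with adult and 117, 124 and 116 with neonatal supernatant. It fell with adult supernatant by 0.38 ± 0.07 in adult and 0.38 ± 0.07 in neonatal cells (limma, adjusted p = 0.000263 and 0.00027). It rose by 0.21 ± 0.07 in adult cells with neonatal supernatant (adjusted p = 0.0332), a call that ended under TMM scaling, without media library 1 or 2 or treated library 1 or 2, and without both media libraries of high interferon level. Sel1l, the scaffold of the HRD1 ubiquitin ligase, fell with adult supernatant by 0.49 ± 0.12 and 0.39 ± 0.12 (adjusted p = 0.00215 and 0.0117), where the neonatal value was not called without media library 3 or treated library 1. Edem1, which hands misfolded glycoproteins to degradation, fell by 0.38 ± 0.08 and 0.28 ± 0.08 with adult supernatant and by 0.31 ± 0.08 in adult cells with neonatal supernatant (adjusted p = 0.000444, 0.00596 and 0.00551).

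Set against each other directly, most of the ER arm was higher with neonatal than with adult supernatant. In adult cells 15 of 18 genes were higher and 0 lower (median 0.39), against 15.1% of all genes called higher and 13.5% called lower (median -0.01). In neonatal cells 10 were higher and 0 lower (median 0.16), against 13.7 and 18.7% (median -0.05). The ATF4 arm was divided, with 4 higher and 5 lower in adult cells and 4 higher and 4 lower in neonatal cells. In all 14 ER folding genes every adult library with neonatal supernatant lay above every adult library with adult supernatant, as in 21.0% of all genes. The largest differences of the ER arm in adult cells were in Herpud1 (1.02 ± 0.09), Dnajc3 (0.75 ± 0.07), Hyou1 (0.66 ± 0.06), Pdia5 (0.66 ± 0.06), Manf (0.63 ± 0.10), Xbp1 (0.59 ± 0.07) and Hspa5 (0.58 ± 0.08) (limma, largest adjusted p = 0.000175). The ER-arm genes not called were Sdf2l1 (0.27 ± 0.11), Pdia6 (0.23 ± 0.23) and Edem1 (0.07 ± 0.08).

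In neonatal cells Pdia5 (0.54 ± 0.06), Herpud1 (0.48 ± 0.09), Dnajc3 (0.40 ± 0.07), Xbp1 (0.40 ± 0.07) and Hyou1 (0.36 ± 0.06) were the ER-arm genes with the largest differences (limma, largest adjusted p = 0.00104). The ER-arm calls of Calr (0.14 ± 0.05) and Pdia4 (0.13 ± 0.05) were lost in 9 and 7 of 28 alternatives, Calr under quantile normalization, no trend, the replicate block, only the groups compared, or without adult-supernatant library 2 or 3 or any neonatal-supernatant library, and Pdia4 with no trend, only the groups compared, or without any adult-supernatant library or neonatal-supernatant library 1 or 2. Of the ATF4 arm, Atf3, Vldlr and Nupr1 were lower with neonatal than with adult supernatant at both ages, by 1.79 ± 0.32, 1.28 ± 0.15 and 0.80 ± 0.11 in adult and 2.00 ± 0.32, 1.15 ± 0.15 and 0.63 ± 0.11 in neonatal cells (largest adjusted p = 0.000356). Psat1 and Ppp1r15a were also lower in adult cells, by 0.28 ± 0.08 and 0.24 ± 0.08 (adjusted p = 0.0142 and 0.0386), and Trib3 in neonatal cells, by 0.46 ± 0.15 (adjusted p = 0.0265). The call for Psat1 ended without library 3 of either group, that for Ppp1r15a under TMM scaling, quantile normalization or the replicate block and without library 1 or 3 with adult or any library with neonatal supernatant, and that for Trib3 without library 1 or 2 of either group. The genes higher with neonatal supernatant at both ages were Atf5 (0.52 ± 0.07 and 0.41 ± 0.07), Ddit3 (0.50 ± 0.10 and 0.62 ± 0.10), Mthfd2 (0.42 ± 0.10 and 0.30 ± 0.10) and Phgdh (0.36 ± 0.11 and 0.36 ± 0.11). In neonatal cells the groups overlapped for Phgdh and Mthfd2, and neither was called without adult-supernatant library 2 or 3 or neonatal-supernatant library 3. In adult cells Phgdh was not called without library 1 or 3 with adult or library 1 or 2 with neonatal supernatant.

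**Figure D4:**
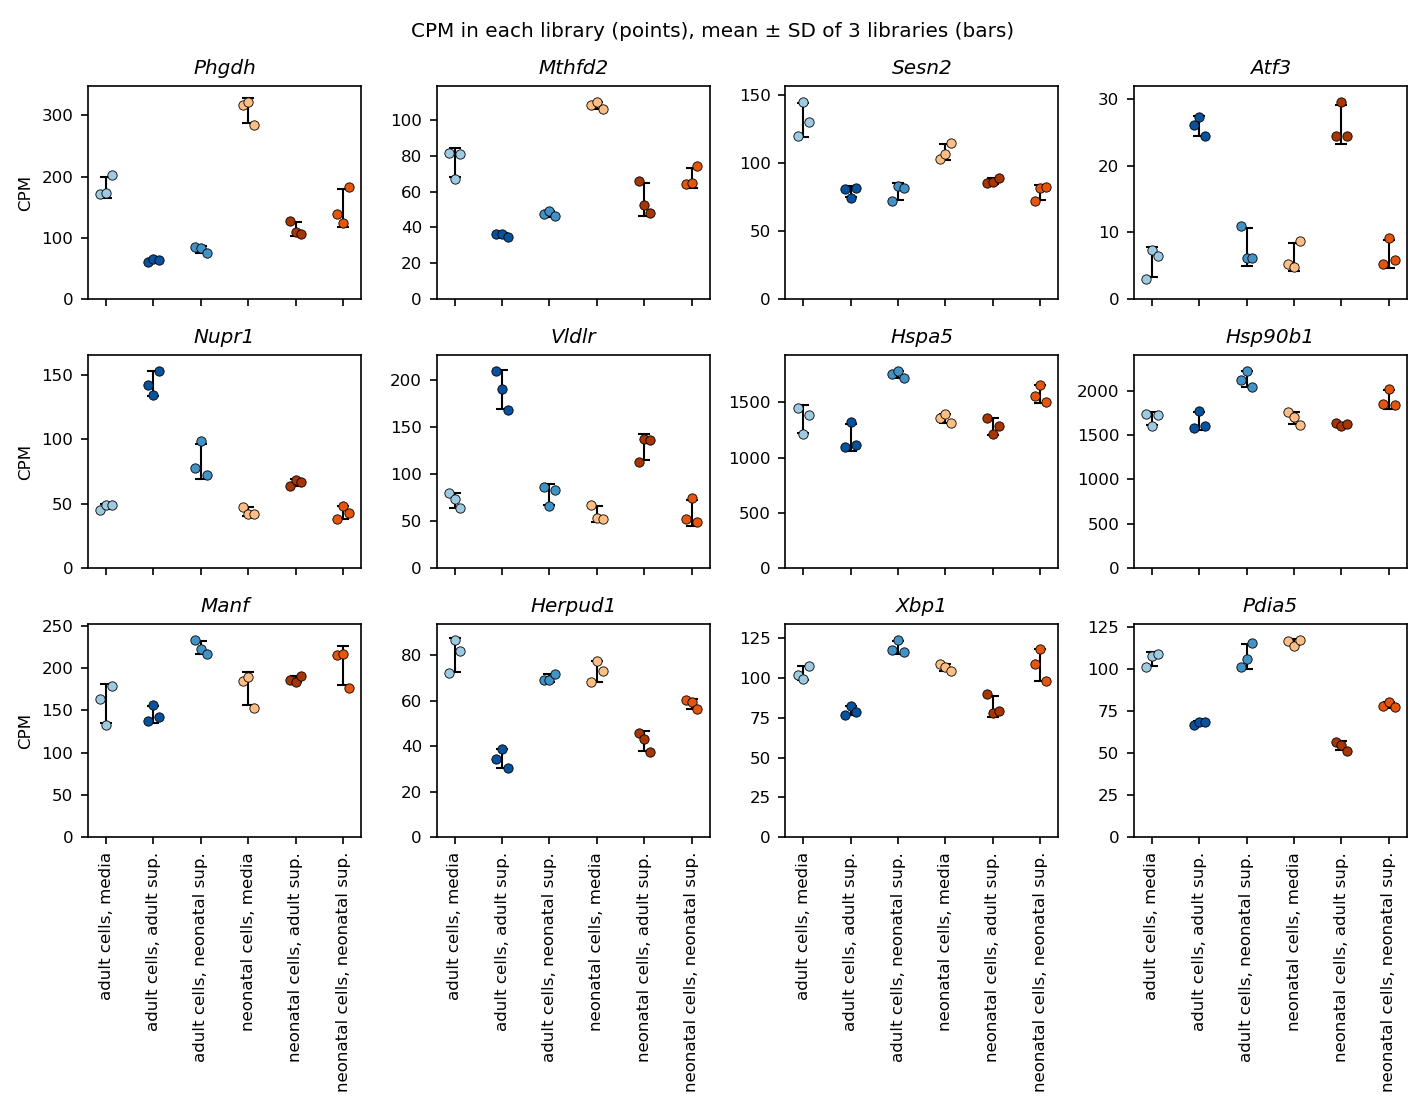
CPM of 12 members in each library, with points for libraries 1 to 3 and bars for the mean ± SD of each group of 3. Atf3 is at 24.4 to 29.6 CPM in the 6 libraries with adult supernatant and at 11.01 CPM or less in all others, and Manf in adult cells is at 217.1 CPM or more with neonatal supernatant and at 178.4 or less elsewhere.

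In media, neonatal cells had more RNA of the amino acid enzymes than adult cells. All 5 were higher, against 16.7% of all genes called higher and 12.0% called lower. Every neonatal library lay above every adult library in each of the 5, as in 23.8% of all genes. In the same libraries 7 of 12 macrophage and 5 of 7 endothelial markers were lower in neonatal cells and 0 higher (median log2 difference -1.16 and -2.20), whose part in the difference was not tested. The differences were 0.87 ± 0.08 in Psat1, 0.76 ± 0.11 in Phgdh, 0.59 ± 0.07 in Shmt2, 0.51 ± 0.10 in Mthfd2 and 0.34 ± 0.08 in Asns (limma, largest adjusted p = 0.00564). Psat1 read 242, 242 and 212 CPM in neonatal and 129.7, 122 and 127 CPM in adult cells. Shmt2 read 117, 121 and 106 and 78.3, 69.9 and 80.01 CPM. The value of Asns was not called without both media libraries of high interferon level (adjusted p = 0.0961). Chac1 was higher by 0.51 ± 0.15 and Sesn2 lower by 0.28 ± 0.08 in neonatal cells (adjusted p = 0.0158 and 0.0129).

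The ER arm of cells in media (median -0.01) had 0 of 18 genes higher in neonatal cells (all genes 16.7%) and 2 lower (11.1%, near the 12.0% of all genes). Those were Dnajb9, lower by 0.27 ± 0.08, and Sel1l, lower by 0.37 ± 0.12 (limma, adjusted p = 0.0182 and 0.0259). Without both media libraries of high interferon level none of Sesn2, Dnajb9, Sel1l and Chac1 was called. Leaving out 1 of those libraries, adult library 2 or neonatal library 1, also ended the calls for Chac1, Sesn2 and Sel1l. Without adult library 1 neither Sel1l nor Dnajb9 was called, and without neonatal library 3 Dnajb9 was not. BiP (Hspa5) differed by 0.01 ± 0.08 between the ages in media (adjusted p = 0.96).

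The response to supernatant was then compared between the ages, as the neonatal response minus the adult response. With adult supernatant 1 member had a larger and 3 a smaller value in neonatal cells, against 3.0 and 1.55% of all genes. With neonatal supernatant 0 were larger and 2 smaller, against 0.493 and 0.361%. The response of Nupr1 was lower in neonatal cells, with a difference of -0.98 ± 0.15 with adult and -0.81 ± 0.15 with neonatal supernatant (limma interaction, adjusted p = 0.0014 and 0.0216). The latter was not called without both media libraries of high interferon level or without neonatal-supernatant library 1 of neonatal cells. Pdia5 had more negative values in neonatal cells with both supernatants, with differences of -0.46 ± 0.08 and -0.58 ± 0.08 (adjusted p = 0.00456 and 0.00361). Psat1 differed by -0.59 ± 0.11 with adult supernatant (adjusted p = 0.00659). Sesn2 fell less in neonatal cells with adult supernatant, by 0.42 ± 0.11 (adjusted p = 0.0407), a call that ended in 14 of 28 alternatives, among them TMM scaling, quantile normalization and the removal of any 1 of 10 libraries.

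Apart from Pdia5, no ER-arm gene passed the interaction test with either supernatant. The rise of chaperones with neonatal supernatant, called for more genes in adult than in neonatal cells, is therefore not shown to differ gene by gene between the ages. The interaction with neonatal supernatant was -0.16 ± 0.11 for Hspa5, -0.17 ± 0.08 for Hsp90b1, -0.31 ± 0.15 for Manf and -0.16 ± 0.07 for Calr (smallest adjusted p of these 4 = 0.298). Its median over the ER arm was -0.17, against 0.01 over all genes, and the ER-arm genes with a value above 0 were Canx (0.03 ± 0.07) and Edem1 (0.12 ± 0.11).

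**Figure D5:**
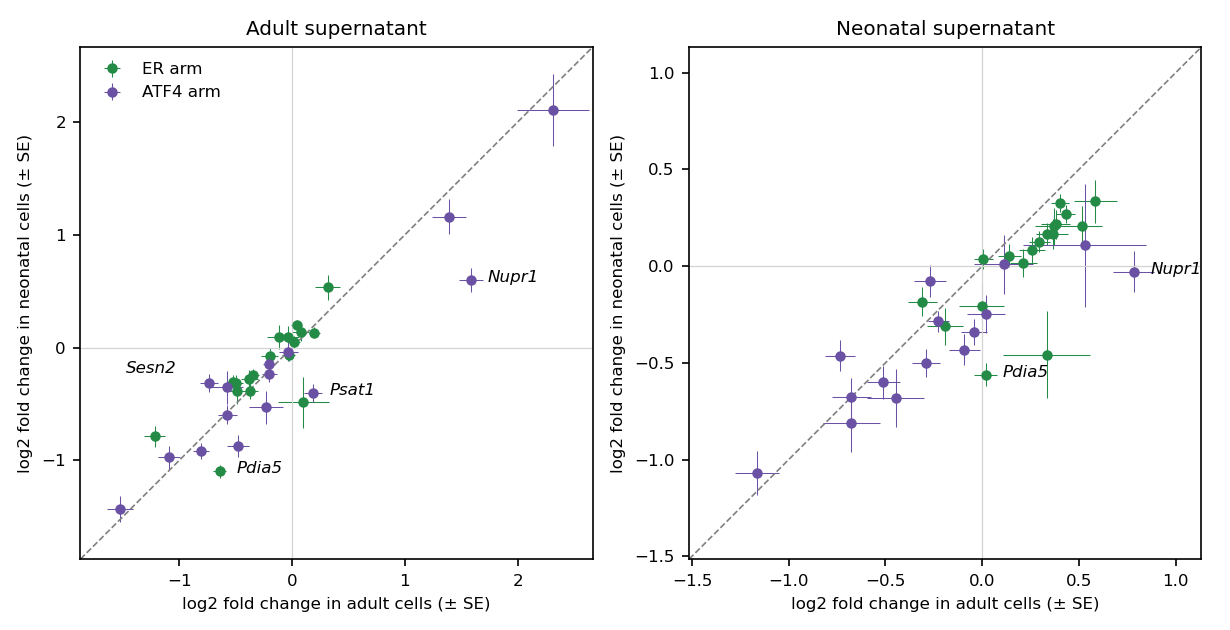
Log2 fold change against media in neonatal cells (vertical axis) against adult cells (horizontal axis), both ± SE, for each ER-arm (green) and ATF4-arm (purple) gene, with adult supernatant on the left, neonatal supernatant on the right, and a dashed line of equal response. Named genes passed the interaction test, with Nupr1 below the line in both panels (-0.98 and -0.81) and the ER-arm genes with neonatal supernatant mostly just below it.

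The upstream sensors were measured as well. Ern1 rose in all 4 comparisons with media, by 1.09 ± 0.13 and 0.54 ± 0.13 in adult cells with adult and neonatal supernatant and by 0.77 ± 0.13 and 0.40 ± 0.13 in neonatal cells (limma, largest adjusted p = 0.04). Eif2ak3, for PERK, read 59.6, 61.5 and 57.5 CPM in adult cells in media and 26.04, 33.4 and 31.5 with adult supernatant, a fall of 0.98 ± 0.09, and fell by 0.74 ± 0.09 in neonatal cells (adjusted p = 5.31e-08 and 2.14e-06). With neonatal supernatant it was at -0.13 ± 0.09 and -0.25 ± 0.09 (adjusted p = 0.271 and 0.0507). Eif2ak2, for PKR, which interferon induces, rose with adult supernatant by 1.16 ± 0.20 and 1.45 ± 0.20 (adjusted p = 0.000102 and 1.14e-05), and was highest of its group in each of the media libraries of high interferon level. Eif2ak1 rose with adult supernatant by 0.42 ± 0.06 and 0.34 ± 0.06 (adjusted p = 4.21e-05 and 0.000332). Eif2ak4 rose by 0.38 ± 0.12 in adult cells with adult supernatant (adjusted p = 0.014). Atf6 fell with neonatal supernatant, by 0.28 ± 0.07 in adult and 0.25 ± 0.07 in neonatal cells (adjusted p = 0.00586 and 0.0176).

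The sensors and eIF2 factors were measured as 19 of 20 listed genes. In adult cells with adult supernatant 6 rose and 5 fell (31.6 and 26.3%, close to the 28.2 and 23.9% of all genes), and with neonatal supernatant 2 rose and 2 fell (10.5 and 10.5%, all genes 16.1 and 11.2%). In neonatal cells 3 rose and 6 fell with adult (15.8 and 31.6%, all genes 28.3 and 19.5%) and 1 rose and 2 fell with neonatal supernatant (5.26 and 10.5%, all genes 10.7 and 7.62%). In adult cells with adult supernatant Mbtps1, the site-1 protease that cleaves ATF6, fell by 0.58 ± 0.06 (limma, adjusted p = 1.92e-07). Ppp1r15b, the constitutive eIF2 phosphatase subunit, rose there by 0.36 ± 0.06 (adjusted p = 3.87e-05).

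Another 21 of 23 listed ATF4 targets were measured. In adult cells 5 rose and 9 fell with adult supernatant (23.8 and 42.9%, all genes 28.2 and 23.9%) and 4 rose and 9 fell with neonatal supernatant (19 and 42.9%, all genes 16.1 and 11.2%). In neonatal cells 6 rose and 13 fell (28.6 and 61.9%, all genes 28.3 and 19.5%) and 3 rose and 15 fell (14.3 and 71.4%, all genes 10.7 and 7.62%). The 4 with the smallest p in adult cells with adult supernatant moved apart. Slc7a5, which imports leucine and other large amino acids, read 122, 119.9 and 127 CPM in adult cells in media, 35.3, 31.7 and 32.99 with adult and 44.4, 50.9 and 49.4 with neonatal supernatant, with falls of 1.89 ± 0.10 and 1.35 ± 0.10 there and 1.97 ± 0.10 and 1.62 ± 0.10 in neonatal cells (limma, largest adjusted p = 7.39e-08). Stc2, a secreted glycoprotein, read 9.13, 11.5 and 8.97 CPM in adult cells in media, 106, 101 and 87.03 with adult and 25.7, 31.8 and 25.9 with neonatal supernatant, with rises of 3.31 ± 0.16 and 1.50 ± 0.16 there and 2.95 ± 0.16 and 0.85 ± 0.16 in neonatal cells (largest adjusted p = 0.00112).

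Slc7a11, the cystine importer, rose by 3.20 ± 0.15 and 0.89 ± 0.15 in adult cells and by 2.17 ± 0.15 in neonatal cells with adult supernatant (limma, largest adjusted p = 0.000265), and was at -0.08 ± 0.15 with neonatal supernatant. Its response was lower in neonatal cells with both supernatants, at -1.03 ± 0.21 and -0.97 ± 0.21 (adjusted p = 0.00982 and 0.0366). Mthfd1l, a mitochondrial folate enzyme like Mthfd2, rose by 1.83 ± 0.10 and 0.86 ± 0.10 in adult and 1.24 ± 0.10 and 0.32 ± 0.10 in neonatal cells (largest adjusted p = 0.0444), while Mthfd2 fell. In media, 9 of the 21 targets (42.9%) were higher and 0 lower in neonatal cells, against 16.7 and 12.0% of all genes.

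Of the 19 cytosolic aminoacyl-tRNA synthetases, which ATF4 also drives, 5 rose and 10 fell in adult cells with adult supernatant (26.3 and 52.6%, all genes 28.2 and 23.9%) and 1 rose and 8 fell with neonatal supernatant (5.26 and 42.1%, all genes 16.1 and 11.2%). In neonatal cells 3 rose and 11 fell (15.8 and 57.9%, all genes 28.3 and 19.5%) and 1 rose and 12 fell (5.26 and 63.2%, all genes 10.7 and 7.62%). Wars, for tryptophan, a gene that interferon-gamma also induces, rose by 2.43 ± 0.08 and 1.69 ± 0.08 with adult supernatant (limma, adjusted p = 1.72e-12 and 8.03e-11) and was at 0.04 ± 0.08 and -0.15 ± 0.08 with neonatal supernatant. Rars and Kars, for arginine and lysine, rose by 1.11 ± 0.09 and 0.76 ± 0.07 in adult cells with adult supernatant, and Mars, for methionine, fell by 0.58 ± 0.06 (largest adjusted p = 8.21e-07). In media 16 of the 19 (84.2%) were higher in neonatal cells and 0 lower (median 0.31), against 16.7 and 12.0% of all genes.

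Among 15 other ER folding genes, 3 rose and 5 fell in adult cells with adult supernatant (20 and 33.3%, all genes 28.2 and 23.9%) and 6 rose and 1 fell with neonatal supernatant (40 and 6.67%, all genes 16.1 and 11.2%). In neonatal cells 2 rose and 6 fell (13.3 and 40%, all genes 28.3 and 19.5%) and 2 rose and 2 fell (13.3 and 13.3%, near the 10.7 and 7.62% of all genes). Ero1l, the oxidase that recharges the disulfide isomerases, read 167, 174 and 163 CPM in adult cells in media, 1008, 904 and 933 with adult and 353, 413 and 349.8 with neonatal supernatant, with no overlap, and rose by 2.50 ± 0.10 and 1.14 ± 0.10 (limma, adjusted p = 6.12e-12 and 3.84e-07). In neonatal cells it rose by 1.63 ± 0.10 and 0.43 ± 0.10, with a lower response than in adult cells, at -0.86 ± 0.14 and -0.72 ± 0.14 (interaction, adjusted p = 0.00269 and 0.0318). P4hb, an isomerase that is also a subunit of the collagen prolyl hydroxylase, rose by 0.54 ± 0.06 and 0.54 ± 0.06 in adult and 0.21 ± 0.06 and 0.23 ± 0.06 in neonatal cells (largest adjusted p = 0.00844).

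Serpinh1, the collagen chaperone HSP47, read 1705, 1691 and 1766 CPM in adult cells in media, 925, 918 and 960.2 with adult and 1434, 1436 and 1552 with neonatal supernatant. It fell by 0.88 ± 0.05 and 0.22 ± 0.05 there and by 0.88 ± 0.05 and 0.41 ± 0.05 in neonatal cells (limma, largest adjusted p = 0.00242), while the summed tendon and fibroblast markers given above were below media in 3 of these treated groups and overlapped media in adult cells with neonatal supernatant. In that last group 3 of the 12 markers rose and 6 fell (25 and 50%, all genes 16.1 and 11.2%). Col1a1 had the largest mean of the 12 in adult cells, 19572 CPM in media and 14168 with neonatal supernatant. The part of these markers in the result was not tested. Erp29 fell by 0.52 ± 0.08 in adult cells with adult supernatant (adjusted p = 3.25e-05) and was at 0.11 ± 0.08 with neonatal supernatant.

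The 14 other ERAD genes had 2 that rose and 9 that fell in adult cells with adult supernatant (14.3 and 64.3%, all genes 28.2 and 23.9%), and 1 and 1 with neonatal supernatant (7.14 and 7.14%, all genes 16.1 and 11.2%). In neonatal cells they had 2 and 7 (14.3 and 50%, all genes 28.3 and 19.5%), and 1 and 1 (7.14 and 7.14%, near the 10.7 and 7.62% of all genes). Derl1, a membrane channel component of ERAD, fell by 0.69 ± 0.06 and Selk, Ubxn4 and Vimp by 0.62 ± 0.07, 0.39 ± 0.06 and 0.51 ± 0.08 in adult cells with adult supernatant (limma, largest adjusted p = 4.02e-05). Between the supernatants, 7 of the 14 (50%) were higher with the neonatal one in adult cells and 0 lower, against 15.1 and 13.5% of all genes. In neonatal cells 5 were higher and 1 lower (35.7 and 7.14%, all genes 13.7 and 18.7%).

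Of 19 genes for translocation into the ER and glycosylation, 5 rose and 8 fell in adult cells with adult supernatant (26.3 and 42.1%, all genes 28.2 and 23.9%) and 6 rose and 0 fell with neonatal supernatant (31.6 and 0%, all genes 16.1 and 11.2%). In neonatal cells 3 rose and 8 fell (15.8 and 42.1%, all genes 28.3 and 19.5%) and 2 rose and 2 fell (10.5 and 10.5%, near the 10.7 and 7.62% of all genes). Sec63, the partner of BiP at the translocon, rose with adult supernatant by 0.79 ± 0.07 and 0.85 ± 0.07, while Sec61a1, the translocon channel, fell by 0.54 ± 0.05 and 0.42 ± 0.05 (limma, largest adjusted p = 5.6e-06). In adult cells with adult supernatant Spcs3, of the signal peptidase, rose by 0.47 ± 0.06 and Stt3a, of the oligosaccharyl transferase, fell by 0.41 ± 0.06 (largest adjusted p = 1.07e-05).

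Chaperones of other compartments were counted as well. Of 8 mitochondrial unfolded protein response genes, 0 rose with either supernatant at either age. In adult cells 3 fell with adult and 1 with neonatal supernatant (37.5 and 12.5%, all genes 23.9 and 11.2%), and in neonatal cells 4 and 2 (50 and 25%, all genes 19.5 and 7.62%). Hspe1 fell by 0.29 ± 0.08 in adult cells with adult supernatant (limma, adjusted p = 0.00493). Of 11 cytosolic heat shock genes 3 rose and 3 fell in adult cells with adult supernatant (27.3 and 27.3%, close to the 28.2 and 23.9% of all genes). With neonatal supernatant 2 rose and 4 fell (18.2 and 36.4%, all genes 16.1 and 11.2%). Hsp90aa1 and Hspa1a rose by 0.66 ± 0.07 and 0.77 ± 0.11 and Bag3 and Hspb1 fell by 0.92 ± 0.06 and 0.87 ± 0.10 in adult cells with adult supernatant (largest adjusted p = 2.26e-05). In neonatal cells 2 rose and 3 fell with adult (18.2 and 27.3%, all genes 28.3 and 19.5%) and 1 rose and 0 fell with neonatal supernatant (9.09 and 0%, all genes 10.7 and 7.62%).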

How the data were processed

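RNA of 18 libraries of cultured mouse tendon cells (6 groups of 3) was measured by polyA-selected sequencing, per the labels' protocols. The deposited table holds log2 CPM (reads per 1e6) of 14391 genes. The submitters' processing notes name kallisto, limma 3.56.2 and build GRCm39. Their settings are not stated there. The lowest deposited value was -2.98 log2 CPM (0.127 CPM), and no gene has under 3 libraries with 1 CPM or more. Depth, estimated from the steps of low values, was 12.7 to 17.7 M reads. The table holds no raw counts, so count tests were not run.

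Each gene was fitted with limma 3.58.1 (R 4.3.3, mean-variance trend, all groups in the fit, 12 residual degrees of freedom), with Benjamini-Hochberg adjustment over all genes and a threshold of 0.05. Fold changes are on the deposited log2 scale, which has an offset and understates changes of low genes. CPM is not per length, so levels are compared within a gene only. The interaction is the neonatal response minus the adult response. Summaries used pandas 2.3.3 and numpy 2.4.6 (Python 3.11.15), and plots used matplotlib 3.10.9.

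The members and lists were chosen with earlier results of these data known. All 33 members are described by role, with up to 4 genes of each other pathway list, those of smallest p in adult cells with adult supernatant against media, and the sensors Ern1, Atf6 and Eif2ak1 to Eif2ak4. Alternatives were TMM scaling, quantile normalization, other offsets, a filter of 5 CPM in 3 libraries, array weights, no trend, a replicate block, only the groups compared, and leaving out single libraries or both media libraries of high interferon level. No column of the table was left unmapped. Promoter windows are from RefSeq, GRCm38.p6, and no coordinate of them was joined to the deposited values.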

Additional observations from a re-analysis of the deposited data

Results flagged for a closer look

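The response to supernatant differed between the cell ages in 6 tests on 4 members, each by limma's interaction term (neonatal response minus adult response, adjusted over all 14391 genes). Nupr1 had a difference of -0.98 with adult supernatant and of -0.81 with neonatal supernatant. Pdia5 had -0.46 and -0.58 in the same order. Psat1 had -0.59 with adult supernatant, where the adult cells did not pass the test against media and the neonatal cells did. Sesn2 had 0.42 with adult supernatant.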

How the results depend on the processing

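Of 297 tests on members, 141 passed the threshold. Many genes outside the members passed as well, at the shares of all genes given above for each comparison. Of the 141 calls, 111 held under all 28 alternatives, 30 were lost in at least 1, and none changed direction in any of the 28. The median of the ER arm minus that of the ATF4 arm, 0.08 in adult cells with adult supernatant, became -0.025 with array weights and ranged from -0.024 to 0.17 with single libraries left out. With neonatal against adult supernatant in adult cells it ranged from 0.31 to 0.47 (main 0.41). For the interaction with adult supernatant it was 0.14, and 0.24 with array weights, and with neonatal supernatant it ranged from -0.12 to 0.10 (main -0.04). The members that rose in neonatal cells with neonatal supernatant numbered 3, 7 with array weights and 2 to 6 without single libraries. Those lower in adult cells with neonatal than with adult supernatant numbered 5, and 3 to 5 without single libraries. Those lower in neonatal cells in media numbered 3, 1 with only the groups compared, 0 without both media libraries of high interferon level and 1 to 4 without single libraries. The interaction with adult supernatant had 1 higher, 0 with TMM scaling, quantile normalization, no trend or without both of those media libraries, and 0 to 2 without single libraries. The interaction with neonatal supernatant had 2 lower, 1 with no trend, with only the groups compared or without both media libraries, and 1 to 2 without single libraries. Fitting without the trend lost 10 of the 141 calls, and fitting only the groups compared lost 15. Both ended calls for Atf4 and Calr in neonatal cells with adult supernatant, for the Nupr1 interaction with neonatal supernatant and for Sel1l in media. The first ended the Xbp1 rise. The second ended those for Shmt2, Ppp1r15a and Sel1l against media, Sesn2 in media, and Phgdh and Mthfd2 between supernatants in neonatal cells. The cause of these shifts was not tested.

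Replicate numbers did not pair the libraries: deviations of same-numbered libraries correlated from -0.159 to 0.216 over 45 pairs, and 8 of 18 libraries correlated best with their own number. With the replicate number as a block, 5 rose and 18 fell in adult cells with adult supernatant, 6 rose and 20 fell in neonatal cells with adult supernatant, 4 (main 5) were lower between supernatants in adult cells and 13 (main 14) higher in neonatal cells, and 2 of the 141 calls were lost, Ppp1r15a between supernatants in adult cells and Calr between them in neonatal cells.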
